A study of Mus musculus with 12 samples.

Results

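TNF receptor superfamily genes and the NF-kB genes that act behind them were followed across 4 sorted mouse liver cell populations. Members were the rows of the deposited count table whose symbol was one of a fixed set of 10: the receptors Tnfrsf12a, Tnfrsf1a, Tnfrsf1b, Tnfrsf11b, Tnfrsf19 and Tnfrsf21, the NF-kB subunits Nfkb1, Nfkb2 and Relb, and the ubiquitin ligase gene Birc3. All 10 were found among the 53599 genes listed. The labels give the genotype of every mouse as WT and say that each received AAV8-TBG-Cre, an adeno-associated virus in which a hepatocyte promoter drives Cre recombinase, so that EGFP traces cells of hepatocyte origin. From a week later all mice were fed 0.1% DDC for 8 weeks, a diet that injures bile ducts and drives part of the hepatocytes towards a biliary state, so no uninjured group was compared. The 4 groups, with 3 libraries each, were early (EGFP+ Cd24- Epcam-), intermediate (EGFP+ Cd24+ Epcam-), full (EGFP+ Cd24+ Epcam+) and BEC, biliary epithelial cells (EGFP- Epcam+) of mice given the same virus and diet. The reporter allele, the age of the mice, whether a library came from 1 mouse or a pool and whether groups share livers are not given in the sources used here. P-values therefore measure the spread between these libraries only, which may be technical.

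TNF superfamily ligands bind trimeric receptors on the cell surface, and adaptor proteins of the TRAF family then pass the signal on. In the canonical arm the IKK complex removes the inhibitor IkB and releases dimers of RelA with the product of Nfkb1, while in the non-canonical arm, which Tnfrsf12a and the lymphotoxin beta receptor can use, the Nfkb2 product is processed and pairs with RelB. Tnfrsf12a encodes Fn14, the receptor for TWEAK, which is known in injured liver for its part in the biliary or ductular response. NF-kB factors bind a 10-letter kappaB element, and Nfkb2, Relb and Birc3 are themselves known NF-kB targets.

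The promoters of 7 of the 10 members were held in the RefSeq table of build GRCm38.p6; Tnfrsf11b, Relb and Nfkb1 had no entry. The 7 genes had 10 annotated starts, 3 of them of Nfkb2 and 2 of Tnfrsf19. The 250 bases before each start were searched on both strands for the NF-kB decamer consensus and for a looser motif, GGG and CC with any 5 bases between them, which every decamer match also fulfils. The decamer was found in 3 of the 10 windows, all of them starts of Nfkb2, and in 7.25% of all 32851 promoter windows. The looser motif was found in 7 of the 10 windows, which belong to 5 genes (Tnfrsf12a, Tnfrsf1a, Tnfrsf1b, Nfkb2 and Birc3), and in 45.8% of all promoter windows. The Nfkb2 stretches are shown because this gene alone among the 7 held the decamer, in capitals; the run of capitals in the first is a pair of overlapping matches. All are printed on the plus strand, that of the gene. The capitals in the first hold matches read on both strands, those in the third a match on the minus strand, and those in the other two matches on the plus strand. The windows they come from overlap annotated exons.
Nfkb2, chr19:46304689-46304718: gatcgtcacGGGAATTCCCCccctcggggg
Nfkb2, chr19:46304707-46304736: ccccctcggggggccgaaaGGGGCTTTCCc
Nfkb2, chr19:46305449-46305478: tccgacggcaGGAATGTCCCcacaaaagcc
Nfkb2, chr19:46305695-46305724: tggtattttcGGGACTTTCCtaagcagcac
The upstream bases of Tnfrsf12a and Birc3 up to the first exonic base are shown too, since the first gene leads the set and the second is a known NF-kB target without the decamer in its window. Capitals mark the looser motif. Both genes lie on the minus strand, and the letters are printed in the direction of the gene. They are therefore the reverse complement of the interval given, and the marked matches read in the direction of the gene.
Tnfrsf12a, chr17:23677469-23677699: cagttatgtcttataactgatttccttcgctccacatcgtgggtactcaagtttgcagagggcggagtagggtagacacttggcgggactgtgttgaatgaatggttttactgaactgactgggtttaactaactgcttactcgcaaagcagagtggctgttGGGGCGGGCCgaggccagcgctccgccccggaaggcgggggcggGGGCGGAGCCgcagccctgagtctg
Birc3, chr9:7873187-7873420: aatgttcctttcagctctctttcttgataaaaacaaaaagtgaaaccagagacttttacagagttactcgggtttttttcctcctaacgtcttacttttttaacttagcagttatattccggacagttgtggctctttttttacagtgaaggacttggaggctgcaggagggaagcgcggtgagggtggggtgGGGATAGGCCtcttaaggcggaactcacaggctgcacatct
A match describes the letters only. Binding of a factor was not measured in these libraries.

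Libraries held 15112893 to 19731887 counts. Levels are given as CPM, the count divided by the TMM-scaled library size and expressed per 1000000, and changes as log2 fold changes from edgeR's quasi-likelihood test over 16210 genes, with Benjamini-Hochberg adjusted p-values and a call at an adjusted p under 0.05. The sorted markers followed the labels: Cd24a had a mean of 3.2 CPM in early and 444 CPM in intermediate libraries, and Epcam 18.8 CPM in intermediate and 254 CPM in full libraries. The hepatocyte gene Alb had means of 73507 CPM in early, 12631 CPM in intermediate, 2582 CPM in full and 1653 CPM in BEC libraries, so this hepatocyte transcript was detected in every group. Krt19, a biliary keratin, was at or under 3 counts in every early library and had a mean of 593 CPM in BEC. Scaling bears on every comparison with early cells. Dividing by total counts alone moved the median log2 change of all genes from 0.06 to 0.72 for intermediate against early and from 0.14 to 1.0 for BEC against early, and the share of calls that were higher from 52.8% to 85.6% and from 54.8% to 80.3%. For full against intermediate it moved the median from 0.01 to 0.21 and the share from 51.2% to 72.6%, and for full against early the median from 0.14 to 1.0 and the share from 54.9% to 81.8%. For BEC against intermediate the median moved to 0.20 and the share from 50.1% to 66.5%. Directions are given with TMM, that is, relative to the bulk of genes, and are marked where they depend on it. In bulk RNA, fewer cells that express a gene and less RNA per cell cannot be told apart.

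Between early and intermediate cells, 7 members rose and 2 fell, and Tnfrsf11b did not pass the test. Of all genes tested, 28.7% were called higher and 25.7% lower at this step. The median log2 change of the members was 0.89, beside 0.06 for all genes. The members that rose were the receptors Tnfrsf12a, Tnfrsf19 and Tnfrsf21, all 3 NF-kB subunits and Birc3. The members that fell were both receptors for TNF itself, Tnfrsf1a and Tnfrsf1b, and neither fall was called when total counts alone set the scale. From intermediate to full, 4 members rose (Tnfrsf19, Tnfrsf21, Nfkb1 and Birc3) and Tnfrsf1b fell, with 20.8% of all genes called higher and 19.8% lower. Without intermediate replicate 3 the number of members called at this step went from 5 to 3, as Tnfrsf1b and Birc3 lost their calls, and the share of all genes called from 40.7% to 34.6%. BEC are untraced cells rather than a later stage of the traced ones. From full to BEC, Tnfrsf1b and Tnfrsf21 rose and Tnfrsf12a fell, with 10.7% of all genes called higher and 10.6% lower. Other measures moved with these groups. The mitochondrial share of counts was 5.45% to 11.4% in the early libraries, 3.99% to 4.75% in intermediate, 2.20% to 2.48% in full and 2.58% to 3.43% in BEC. The 7 endothelial markers summed to 13.8 to 22.3 CPM in early, 6.16 to 14.9 CPM in intermediate, 2.08 to 4.64 CPM in full and 1.73 to 6.63 CPM in BEC. Their fall at the first step was mostly that of Stab2, from a mean of 11.9 to 5.02 CPM, while Pecam1 (1.09 and 1.14 CPM) and Cdh5 (1.16 and 1.42 CPM) were low in both groups. The 8 stellate cell and fibroblast markers summed to 68.1 to 222 CPM in early, 33.3 to 127 CPM in intermediate, 28.6 to 53.5 CPM in full and 56.1 to 96.9 CPM in BEC, most of it collagen transcripts such as Col3a1, with a mean of 61.1 CPM in early and 26.5 CPM in intermediate. The part of these in the members' changes was not tested.

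**Figure D1:**
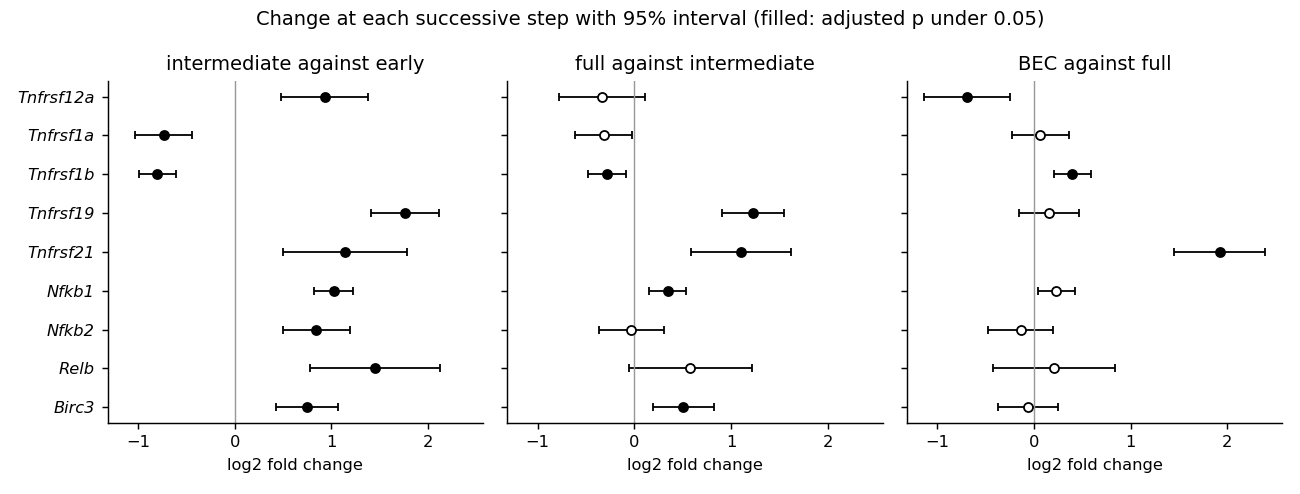
Log2 fold change (x axis) of 9 members (y axis) at each of the 3 successive steps, from edgeR with TMM scaling; bars are 95% intervals and filled points passed an adjusted p under 0.05. At the first step only Tnfrsf1a and Tnfrsf1b lie to the left of 0, a position that with total counts alone is no longer called, and Tnfrsf21 is the point farthest to the right at the last step, at 1.92.

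Over the longer spans, full against early called 7 members higher (39.1% of all genes) and 2 lower (32.1%). BEC against early called 6 higher (40% of all genes) and 2 lower (33%). With total counts alone, Tnfrsf12a and Tnfrsf11b were also called higher in BEC than in early (edgeR adjusted p = 0.00336 and 0.0322). Tnfrsf1a and Tnfrsf1b then lost their calls as lower, while the share of all calls that were higher went from 54.8% to 80.3%. BEC against intermediate called 6 higher (26.3% of all genes) and 1 lower (26.2%). The 6 include Tnfrsf11b, which passed the low-count filter through BEC alone; without it 5 of 9 were higher. The 7 calls of BEC against intermediate became 4 without intermediate replicate 2 and 4 without BEC replicate 1, where 46.5% and 49.6% of all genes were called. Across all 4 groups, the F test called 9 of the 10 members, beside 75.6% of all genes. These comparisons share libraries with the 3 steps and are not separate evidence.

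Tnfrsf12a, the TWEAK receptor Fn14, was highest in intermediate cells. It had 142, 75.8 and 78.2 CPM in the early libraries, 194, 203 and 166 CPM in intermediate, 166, 137 and 144 CPM in full and 74.1, 96.5 and 105 CPM in BEC. All intermediate libraries lay above all early and all BEC libraries, and the full libraries overlapped the early group through early replicate 1 alone. Tnfrsf12a rose 1.90-fold from early to intermediate (log2 0.93, SE 0.21, edgeR adjusted p = 0.00183). It was lower in full than in intermediate by a log2 difference of -0.34 (95% interval -0.78 to 0.11, edgeR adjusted p = 0.216), which did not pass the test in the fit of all libraries; fitted on the 6 libraries of these 2 groups, the same difference had an adjusted p of 0.0239. It fell from full to BEC (log2 -0.69, SE 0.21, edgeR adjusted p = 0.0274), 1.62-fold, a call that was lost on leaving out full replicate 1, full replicate 3, BEC replicate 1 or BEC replicate 2 (adjusted p 0.0987, 0.0579, 0.116 and 0.0628).

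BEC and early cells did not differ in Tnfrsf12a by the test with TMM scaling, and did with total counts alone. Their means were 92.0 ± 16.1 CPM in BEC and 98.6 ± 37.4 CPM in early (SD, n = 3), with a log2 difference of -0.10 (95% interval -0.55 to 0.35, edgeR adjusted p = 0.679). With total counts alone the difference was 0.77 and was called higher in BEC (edgeR adjusted p = 0.00336), and without early replicate 1 it was 0.26 with no call. BEC lay below intermediate by a log2 change of -1.03 (edgeR adjusted p = 8.74e-04), and full lay above early by 0.59 (edgeR adjusted p = 0.0198), the latter no longer called without early replicate 2, early replicate 3 or full replicate 1. The order of Tnfrsf12a from low to high was therefore BEC, early, full and intermediate, in which BEC and early, and full and intermediate, did not differ by the test.

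**Figure D2:**
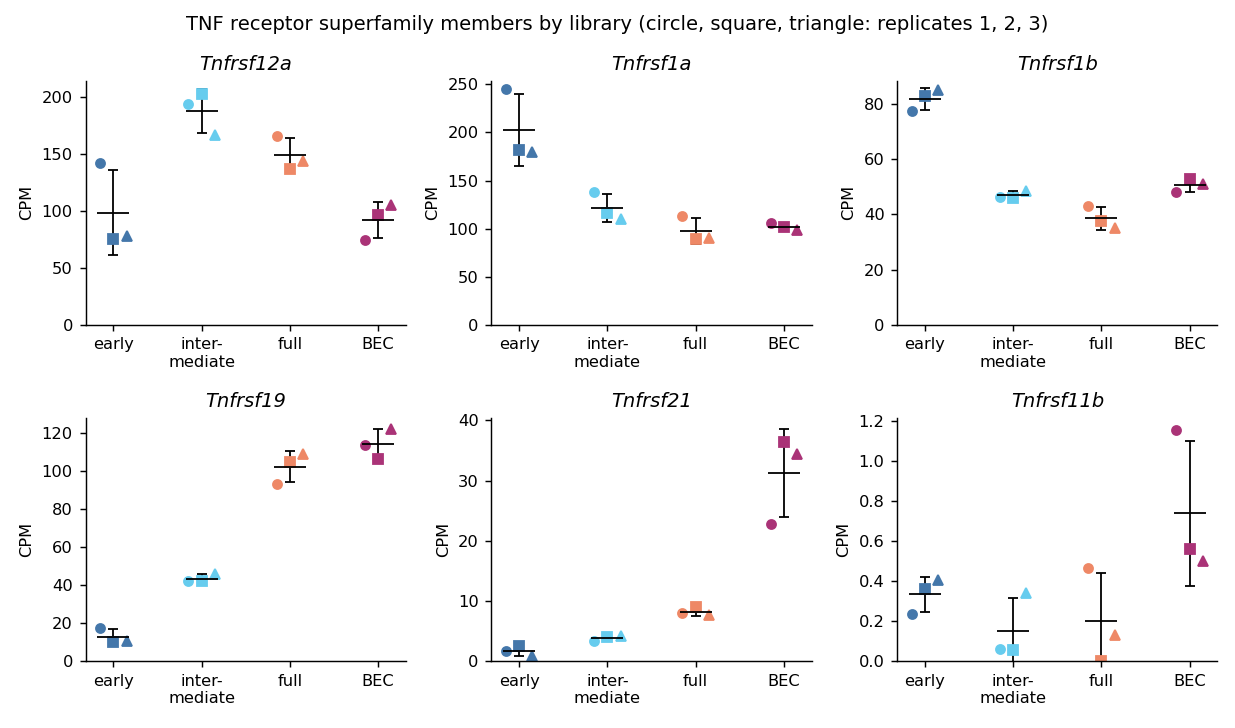
Level in CPM (y axis, starting at 0 and differing between panels) of the 6 TNF receptor superfamily members in each of the 12 libraries (points; symbols give the replicate number) by group (x axis), with the group mean and SD in black. Tnfrsf12a peaks in intermediate cells, Tnfrsf1a and Tnfrsf1b are highest in early cells on this TMM scale, and Tnfrsf19 and Tnfrsf21 climb towards BEC.

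Tnfrsf1a encodes the broadly expressed TNF receptor with a death domain. Its levels were 245, 182 and 180 CPM in early, 138, 116 and 110 CPM in intermediate, 113, 88.8 and 90.1 CPM in full and 105, 102 and 98.8 CPM in BEC. Every early library stood above every other library, and every intermediate library above every BEC library. The fall from early to intermediate was 1.67-fold (log2 -0.74, SE 0.14, edgeR adjusted p = 4.20e-04), and with total counts alone it was -0.07 and not called. Full against intermediate (log2 -0.32, edgeR adjusted p = 0.0787) and BEC against full (log2 0.06, 95% interval -0.23 to 0.36, edgeR adjusted p = 0.811) did not pass the test. BEC against intermediate (log2 -0.25, 95% interval -0.55 to 0.040, edgeR adjusted p = 0.137) did not pass either. With the replicate number as a block, full against intermediate (edgeR adjusted p = 0.00686) and BEC against intermediate (edgeR adjusted p = 0.0241) did pass, and the former also without full replicate 1 (edgeR adjusted p = 0.0281).

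Tnfrsf1b encodes the second TNF receptor, which has no death domain and signals through TRAF proteins. It had 77.6, 83.1 and 85.1 CPM in early, 46.3, 46.1 and 48.6 CPM in intermediate, 43.1, 37.5 and 35.2 CPM in full and 48.1, 52.9 and 51.1 CPM in BEC. Groups that follow each other in the sort did not overlap, with the lowest libraries in full. It fell from early to intermediate (log2 -0.80, SE 0.09, edgeR adjusted p = 5.13e-06), a change of -0.14 without a call when total counts alone set the scale. The further fall to full was small (log2 -0.29, edgeR adjusted p = 0.0212), and was lost with total counts alone, without the low-count filter, and without intermediate replicate 3, full replicate 2 or full replicate 3. The rise from full to BEC was 1.32-fold (log2 0.40, SE 0.09, edgeR adjusted p = 0.00549) and kept its call with total counts alone (log2 0.40).

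Tnfrsf19, an orphan receptor also called Troy and known as a stem cell marker in some epithelia, rose at both steps of the traced cells. It had 17.5, 10.1 and 10.8 CPM in early, 42.2, 42.4 and 46.0 CPM in intermediate, 93.3, 105 and 109 CPM in full and 113, 106 and 122 CPM in BEC. The first 3 groups did not overlap, and full and BEC did. The rise was 3.39-fold into intermediate (log2 1.76, SE 0.16, edgeR adjusted p = 8.38e-07) and 2.35-fold into full (log2 1.23, SE 0.15, edgeR adjusted p = 1.95e-05). BEC and full differed by 0.16 (95% interval -0.15 to 0.47, edgeR adjusted p = 0.536).

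Tnfrsf21, which encodes the death domain receptor DR6, was highest in BEC. It had 1.74, 2.55 and 0.971 CPM in early, 3.33, 4.00 and 4.13 CPM in intermediate, 7.96, 9.10 and 7.65 CPM in full and 22.8, 36.4 and 34.4 CPM in BEC. No 2 groups overlapped, and the early values rest on 12 to 28 counts a library. It rose 2.21-fold into intermediate (log2 1.14, SE 0.30, edgeR adjusted p = 0.00493), 2.15-fold into full (log2 1.10, SE 0.24, edgeR adjusted p = 0.00213) and 3.79-fold from full to BEC (log2 1.92, SE 0.22, edgeR adjusted p = 2.67e-05). BEC stood 18-fold above early (log2 4.17, SE 0.27, edgeR adjusted p = 7.30e-09).

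Tnfrsf11b, osteoprotegerin, a secreted decoy receptor, was barely detected. It had 3, 4 and 5 counts in the early libraries, 1, 1 and 6 in intermediate, 11, 0 and 3 in full and 24, 12 and 11 in BEC, so that no library exceeded 1.16 CPM. In CPM all BEC libraries lay above all others, the nearest being full replicate 1. It passed the low-count filter only through BEC, and its call in BEC against intermediate (edgeR adjusted p = 0.0415) was lost without intermediate replicate 1 or 2 or BEC replicate 1 or 2. These counts are too few to give a fold change here.

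Nfkb1, whose product is cut to the p50 subunit, rose at both steps of the traced cells. It had 63.4, 57.9 and 53.3 CPM in early, 132, 112 and 111 CPM in intermediate, 149, 147 and 155 CPM in full and 172, 177 and 180 CPM in BEC. None of the 4 groups overlapped. The rise into intermediate was 2.03-fold (log2 1.02, SE 0.09, edgeR adjusted p = 6.52e-07) and into full 1.27-fold (log2 0.35, SE 0.09, edgeR adjusted p = 0.00732). BEC against full did not pass the test (log2 0.23, 95% interval 0.04 to 0.42, edgeR adjusted p = 0.0886), but did with DESeq2 (adjusted p = 0.0430) and on the 6 libraries of these 2 groups (adjusted p = 0.0397).

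Nfkb2, whose product p100 is processed to p52 in the non-canonical arm, rose at the first step. It had 90.1, 65.7 and 68.8 CPM in early, 135, 138 and 131 CPM in intermediate, 119, 137 and 139 CPM in full and 88.4, 129 and 141 CPM in BEC. The early libraries lay below all intermediate and full libraries, while BEC replicate 1 fell among the early values. The rise into intermediate was 1.80-fold (log2 0.85, SE 0.16, edgeR adjusted p = 4.82e-04). Full against intermediate differed by -0.03 (95% interval -0.37 to 0.30, edgeR adjusted p = 0.891) and BEC against full by -0.14 (95% interval -0.47 to 0.20, edgeR adjusted p = 0.634). Exons of AC114539.1 and Psd on the opposite strand cover 531 and 299 of its 4584 exonic bases in GENCODE M21, and the strandedness of the counting is not given in the sources used here.

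Relb, the partner of p52, had the highest coefficient of variation of the 10 members among the early libraries, at 67.3%. It had 44.0, 14.7 and 15.5 CPM in early, 84.7, 63.1 and 56.2 CPM in intermediate, 101, 106 and 97.0 CPM in full and 110, 124 and 117 CPM in BEC. The groups did not overlap, but early replicate 1 stood at 2.91 times the mean of the other early libraries. Relb rose 2.73-fold into intermediate (log2 1.45, SE 0.31, edgeR adjusted p = 0.00136), or by 2.17 on the log2 scale without early replicate 1, a fold more than 1.5 times as large. Full against intermediate (log2 0.58, 95% interval -0.06 to 1.21, edgeR adjusted p = 0.138) did not pass the test in the fit of all libraries, but passed with total counts alone (adjusted p = 0.0462), without the low-count filter (adjusted p = 0.00392) and on the 6 libraries of these 2 groups (adjusted p = 0.00894). BEC against full differed by 0.21 (edgeR adjusted p = 0.707), and the call in BEC against intermediate (log2 0.78, edgeR adjusted p = 0.0387) was lost without intermediate replicate 2 or 3 or any 1 of the BEC libraries.

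Birc3, which encodes the ubiquitin ligase cIAP2 that restrains the kinase of the non-canonical arm, had 52.4, 35.9 and 37.6 CPM in early, 84.5, 65.3 and 62.6 CPM in intermediate, 93.7, 102 and 106 CPM in full and 105, 96.1 and 87.0 CPM in BEC. Early lay below intermediate and intermediate below full, while full and BEC overlapped. It rose into intermediate (log2 0.75, SE 0.15, edgeR adjusted p = 7.27e-04) and into full (log2 0.51, SE 0.14, edgeR adjusted p = 0.0124), the second call lost without intermediate replicate 2 or 3. BEC against full differed by -0.07 (95% interval -0.37 to 0.24, edgeR adjusted p = 0.822), and the call in BEC against intermediate (log2 0.44, edgeR adjusted p = 0.0198) was lost without intermediate replicate 2 or 3 or BEC replicate 1.

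**Figure D3:**
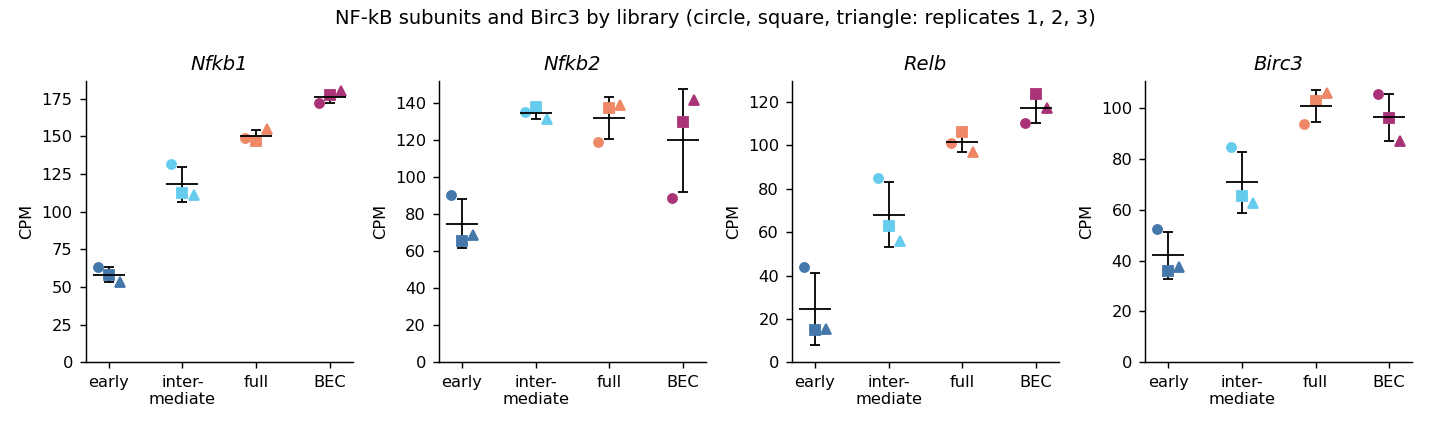
Level in CPM (y axis, starting at 0 and differing between panels) of Nfkb1, Nfkb2, Relb and Birc3 in each of the 12 libraries (points; symbols give the replicate number) by group (x axis), with the group mean and SD in black. All 4 genes are lowest in early cells, where Relb has 1 library at 44.0 CPM and the others at 14.7 and 15.5 CPM.

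Early replicate 1 had the highest early level of Tnfrsf12a, Tnfrsf1a, Tnfrsf19, Relb, Nfkb1, Nfkb2 and Birc3. Its summed level over the 8 stellate cell and fibroblast markers was 68.1 CPM, against 206 and 222 CPM in early replicates 2 and 3, and its 8 biliary markers summed to 951 CPM, against 1145 and 1912 CPM. The part of these differences in the members' values was not tested. Without early replicate 1, Tnfrsf12a rose by 1.29 on the log2 scale into intermediate. At this step 9 members were then called, as with all libraries, while the share of all genes called went from 54.4% to 52.3%.

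Per kilobase of exonic length, Tnfrsf12a had the highest group mean of the 6 receptors in intermediate, full and BEC, and Tnfrsf1a in early cells. In intermediate libraries Tnfrsf12a had 97.2 ± 9.87 CPM per kb and Tnfrsf1a 46.9 ± 5.71 CPM per kb, while in early libraries they had 51.0 ± 19.4 and 78.1 ± 14.4 CPM per kb (SD, n = 3). In BEC the means were 47.6 CPM per kb for Tnfrsf12a, 39.3 for Tnfrsf1a, 24.1 for Tnfrsf19, 13.3 for Tnfrsf1b and 7.60 for Tnfrsf21. BEC replicate 1 went the other way for the first 2, with 38.4 CPM per kb for Tnfrsf12a and 40.7 for Tnfrsf1a. Among the subunits in BEC, Relb had 30.1 CPM per kb, Nfkb2 26.1 and Nfkb1 14.6, and in early cells 6.37, 16.3 and 4.83, so Nfkb2 had the highest mean in early cells. BEC replicate 3 went the other way, with 30.8 CPM per kb for Nfkb2 and 30.1 for Relb, and Nfkb2 in BEC replicate 1 was at 0.653 times the mean of the other BEC libraries. These comparisons use lengths from GENCODE M21, taken over all annotated exons of a gene together, and are descriptions without a test. In BEC the order of the subunits depends on that length. Before division by it, Nfkb1 had the highest mean there, with 176 CPM, beside 120 CPM for Nfkb2 and 117 CPM for Relb.

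By the Pearson correlation of log2 CPM over the 12 libraries, the 5 genes with a pattern most like Tnfrsf12a among 10922 candidates were Mta1 (r = 0.954), Shc2 (0.949), Syt12 (0.948), Map7d1 (0.948) and Tspan17 (0.945). Mta1 had means of 94.7 CPM in early, 130 CPM in intermediate, 117 CPM in full and 90.4 CPM in BEC. Among the other members Nfkb2 was nearest (r = 0.703, rank 384), and Tnfrsf1b had r = -0.541. The points share library, depth and scaling, so these values describe likeness only.

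Genes of the pathway outside the 10 members were read from 6 lists, against the whole table. Of all genes tested, 28.7%, 20.8% and 10.7% were called higher at the 3 successive steps and 25.7%, 19.8% and 10.6% lower, with median log2 changes of 0.06, 0.01 and 0.0046. With total counts alone, 59.4% were higher and 10% lower at the first step, and 32.3% higher and 12.2% lower at the second, and list counts under that scaling are read against these shares.

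Of 18 listed ligands, 7 (38.9%) passed the low-count filter, beside 30.2% of all genes. At the 3 successive steps 3, 4 and 2 of the 7 rose (42.9%, 57.1% and 28.6%) and 2, 1 and 1 fell (28.6%, 14.3% and 14.3%), with median log2 changes of 0.89, 0.99 and -0.29. In so short a list the shares at the first step differ from those of all genes by about 1 gene. With total counts alone 4 rose and 0 fell at each of the first 2 steps, and without early replicate 1 the first step had 3 and 0, beside 27.6% and 24.7% of all genes. Tnfsf12, which encodes TWEAK, the ligand of Tnfrsf12a, had 19.0, 21.1 and 16.3 CPM in early, 13.7, 15.1 and 14.4 CPM in intermediate, 11.5, 9.28 and 12.1 CPM in full and 9.25, 9.04 and 8.54 CPM in BEC. Early libraries were the highest and BEC the lowest. The fall into full (log2 -0.39, edgeR adjusted p = 0.0350) was not called with total counts alone (log2 -0.19) or with median-of-ratios factors (log2 -0.35), and was lost without any 1 of intermediate replicates 2 and 3 and full replicates 1 and 2. Of its exons, 731 of 1515 bases are shared with the readthrough gene Tnfsfm13 on the same strand.

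Ltb, a lymphotoxin subunit that signals through Ltbr, had 4.59, 1.91 and 1.94 CPM in early and 64.2, 49.3 and 28.5 CPM in intermediate libraries. Every intermediate library exceeded every early library by far (log2 4.05, SE 0.37, edgeR adjusted p = 6.81e-07), and the mean in full was 93.9 CPM. Tnf itself had at most 1 count in any early library, 28, 18 and 7 counts in intermediate, means of 11.7 ± 3.42 CPM in full and 39.7 ± 11.2 CPM in BEC (SD, n = 3). It rose from intermediate to full (log2 3.49, SE 0.39, edgeR adjusted p = 9.65e-06) and from full to BEC (log2 1.77, SE 0.30, edgeR adjusted p = 6.25e-04). Eda, ectodysplasin, fell into intermediate (log2 -0.59, edgeR adjusted p = 0.0309), but was at 0.074 with total counts alone and lost its call without early replicate 1, intermediate replicate 1 or intermediate replicate 2.

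Tnf is a product of macrophages, among other cells. The 8 macrophage markers summed to 23.3 to 23.5 CPM in early, 29.2 to 35.5 CPM in intermediate, 65.2 to 86.4 CPM in full and 133 to 145 CPM in BEC. The rise of that sum was carried by Csf1r, with means of 3.94, 24.6, 67.8 and 127 CPM from early to BEC. Of the 5774 exonic bases of Csf1r, 873 are shared with Hmgxb3 on the opposite strand. Cd68 went the other way at the first step, with means of 14.0, 2.74, 1.62 and 3.46 CPM. Clec4f, a Kupffer cell lectin, had means of 1.70, 1.23, 1.86 and 3.69 CPM, Lyz2 2.25, 2.52, 2.54 and 3.98 CPM and Marco 0.923, 0.566, 0.899 and 1.22 CPM. BEC replicate 3 had the highest level of these 3 genes, with 7.68 CPM of Clec4f and 7.63 CPM of Lyz2. Adgre1 and Ptprc, which define macrophages and leukocytes, reached at most 1.05 and 1.19 CPM in any library, and Timd4 0.457 CPM. The 4 B cell markers, 6 T and NK cell markers and 5 neutrophil markers summed to no more than 0.411, 0.466 and 1.02 CPM. The part of other cells in the Tnf result was not tested.

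Of 22 other receptors of the family, 16 were tested. At the successive steps 6, 5 and 3 rose (37.5%, 31.3% and 18.8%, beside 28.7%, 20.8% and 10.7% of all genes) and 2, 2 and 3 fell (12.5%, 12.5% and 18.8%, beside 25.7%, 19.8% and 10.6%). Their median log2 changes were 0.68, 0.45 and 0.07. With total counts alone the first 2 steps had 9 higher and 0 lower, and 8 higher and 1 lower. Eda2r, the receptor for an ectodysplasin isoform, rose into intermediate (log2 1.93, SE 0.27, edgeR adjusted p = 4.55e-05) and fell from full to BEC (log2 -0.83, edgeR adjusted p = 0.0278), the latter call lost without full replicate 1 or 3 or BEC replicate 1 or 3. Ltbr, the lymphotoxin beta receptor and another entry to the non-canonical arm, had means of 193, 105, 76.5 and 79.7 CPM from early to BEC and fell into intermediate (log2 -0.88, edgeR adjusted p = 1.39e-05), though not with total counts alone (log2 -0.21, edgeR adjusted p = 0.0943). Fas, a death receptor, fell into full (log2 -1.19, SE 0.19, edgeR adjusted p = 2.41e-04) from a mean of 14.5 to 6.33 CPM. Tnfrsf11a, which encodes RANK, rose into full (log2 2.62, SE 0.29, edgeR adjusted p = 8.08e-06) to 5.04 CPM and stood at 19.7 CPM in BEC. Tnfrsf23, a decoy receptor with close paralogs whose reads may be shared, rose from 3.98 to 18.5 CPM between full and BEC (log2 2.21, SE 0.41, edgeR adjusted p = 0.00129).

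All 23 adaptors and ubiquitin enzymes were tested. At the first step 11 rose (47.8%, beside 28.7% of all genes) and 2 fell (8.70%, beside 25.7%), with a median log2 change of 0.27; with total counts alone, where 59.4% of all genes were higher, the split was 22 and 0. At the second 5 rose (21.7%, beside 20.8% of all genes) and 2 fell (8.70%, beside 19.8%), or 9 and 0 with total counts alone. At the third edgeR called 0 higher and 3 lower, with 1 higher at an unadjusted p under 0.05 and 1 higher by DESeq2. Birc2, which encodes cIAP1, the partner of Birc3's product, rose from a mean of 54.6 to 204 CPM into intermediate (log2 1.90, SE 0.15, edgeR adjusted p = 1.86e-07), beside 0.75 for Birc3, and fell from full to BEC (log2 -0.48, edgeR adjusted p = 0.0283), the latter call lost without full replicate 2 or 3 or BEC replicate 1 or 3. Casp8, the initiator caspase of death receptors, rose into full (log2 0.64, SE 0.08, edgeR adjusted p = 2.24e-05). Otulin, a deubiquitinase of linear chains, fell into intermediate (log2 -0.54, edgeR adjusted p = 0.00151) and full (log2 -0.44, edgeR adjusted p = 0.00894), though with total counts alone the first was 0.13 and neither was called.

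The IKK complex and the remaining subunits made up a list of 5 genes. At the first step 1 rose and 2 fell (median log2 change -0.33), against 2 and 0 with total counts alone (median 0.34) and 1 and 4 with median-of-ratios factors, under which 26.7% of all genes were higher and 27.7% lower. At the second step edgeR called 0 higher and 2 lower (2 and 2 with total counts alone), with 0 higher at an unadjusted p under 0.05 and 1 higher by DESeq2. At the third edgeR called 0, with 1 gene lower at an unadjusted p under 0.05 and 0 called by DESeq2. Rela, the main canonical partner of p50, rose into intermediate (log2 0.44, SE 0.11, edgeR adjusted p = 0.00314) from 117 to 158 CPM. Chuk, which encodes the kinase IKK alpha of the non-canonical arm, fell into intermediate from 142 to 80.9 CPM (log2 -0.81, SE 0.10, edgeR adjusted p = 8.46e-06), a change of -0.15 with no call when total counts alone set the scale. Ikbkg, the regulatory subunit NEMO, fell into full (log2 -0.79, SE 0.15, edgeR adjusted p = 8.04e-04), with 418 of its 8110 exonic bases shared with G6pdx on the opposite strand.

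Of 10 inhibitors and feedback genes, 7 rose and 1 fell into intermediate (9 and 0 with total counts alone), 3 rose and 2 fell into full (6 and 1), and 2 rose from full to BEC, with median log2 changes of 0.89, 0.33 and -0.07. The 7 higher at the first step are 70% of the list, beside 28.7% of all genes, while the 3 and 2 at the second are near the 20.8% and 19.8% of all genes. Nfkbie, which encodes IkB epsilon, rose from 24.5 to 78.1 CPM into intermediate (log2 1.67, SE 0.20, edgeR adjusted p = 9.77e-06). Nfkbid, an atypical nuclear IkB, rose into full (log2 1.29, SE 0.25, edgeR adjusted p = 0.00103) and from full to BEC (log2 0.96, SE 0.23, edgeR adjusted p = 0.00772). Nfkbib, IkB beta, fell from 50.2 to 31.7 CPM into intermediate (log2 -0.66, edgeR adjusted p = 8.34e-05), but with total counts alone the change was 0.0024, and 314 and 42 of its 2169 exonic bases are shared with Ccer2 and Sirt2 on the opposite strand.

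Of 22 listed NF-kB targets, 18 were tested. At the successive steps 8, 12 and 9 rose (44.4%, 66.7% and 50%, beside 28.7%, 20.8% and 10.7% of all genes) and 2, 1 and 0 fell (11.1%, 5.56% and 0%, beside 25.7%, 19.8% and 10.6%), with median log2 changes of 0.76, 1.20 and 0.65, beside 0.06, 0.01 and 0.0046 for all genes. With total counts alone the first 2 steps had 13 higher and 2 lower, and 13 higher and 1 lower, beside 59.4% and 32.3% of all genes higher. The 0 called lower at the third step compare with 2 at an unadjusted p under 0.05 and 0 by DESeq2. The chemokine gene Ccl2 rose from 33.7 to 248 CPM into intermediate (log2 2.88, SE 0.32, edgeR adjusted p = 4.41e-06), and the neutrophil chemokine gene Cxcl5 from 3.74 to 62.3 CPM into full (log2 4.08, SE 0.39, edgeR adjusted p = 2.30e-06) and to 444 CPM in BEC. Cxcl5 had 6.79, 2.79 and 1.64 CPM in the intermediate libraries, and without intermediate replicate 1 its log2 change into full was 4.80, a fold 1.65 times as large. Ptgs2, cyclooxygenase 2, had no counts in early libraries and 69, 213 and 333 counts in BEC, and rose from full to BEC (log2 3.59, SE 0.55, edgeR adjusted p = 5.75e-04). In the other direction Sod2, the mitochondrial superoxide dismutase, had means of 253, 81.4, 46.4 and 52.4 CPM from early to BEC and fell into full (log2 -0.81, SE 0.10, edgeR adjusted p = 1.65e-05). Lcn2, lipocalin 2, fell into intermediate (log2 -1.81, SE 0.35, edgeR adjusted p = 6.15e-04) from 905 to 259 CPM and had a mean of 1383 CPM in BEC.

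**Figure D4:**
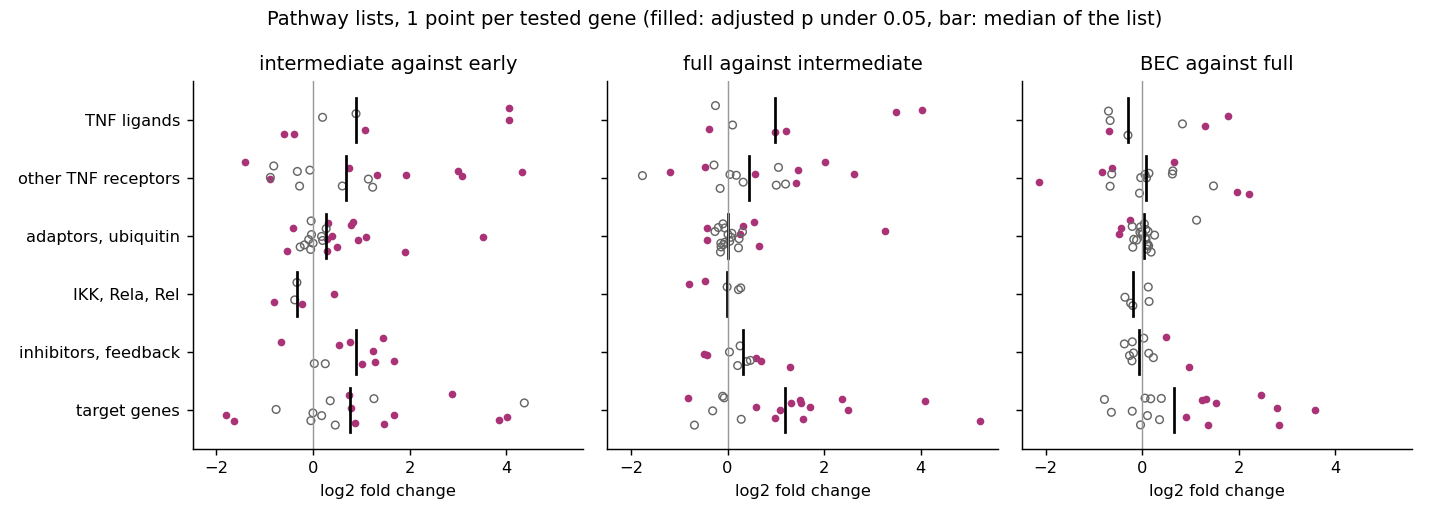
Log2 fold change (x axis) of each tested gene in the 6 pathway lists (rows) at the 3 successive steps; filled points passed an adjusted p under 0.05, open points did not, and the bar is the median of the list. The target genes have medians of 0.76, 1.20 and 0.65, and the IKK and subunit list lies to the left of the others at the first step on this TMM scale, at -0.33, against 0.34 with total counts alone.

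**Figure D5:**
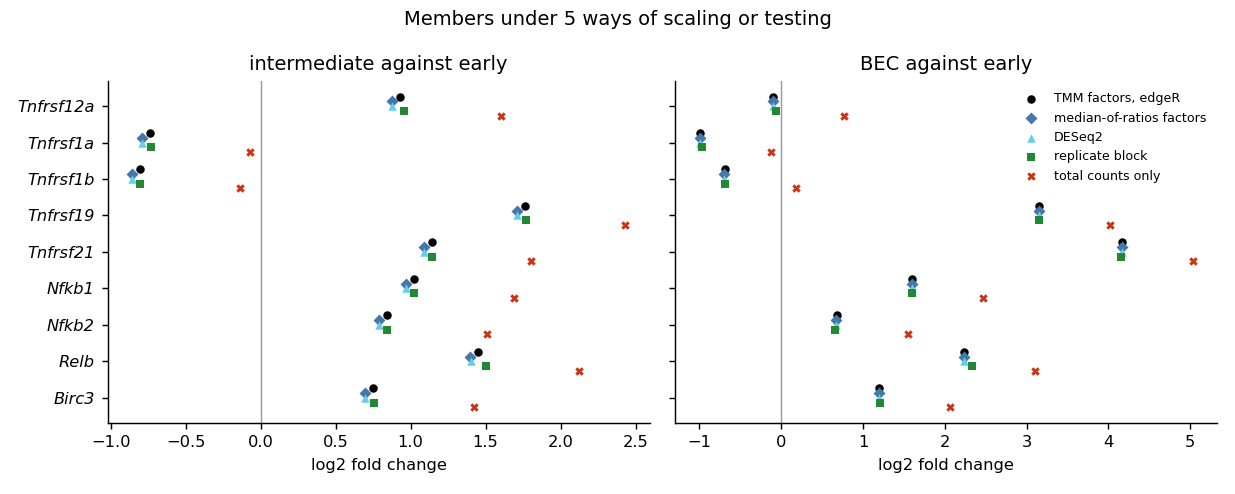
Log2 fold change (x axis) of 9 members for intermediate against early (left) and BEC against early (right) under 5 ways of scaling or testing (symbols). Values from total counts alone sit to the right of the others; with them Tnfrsf12a moves from -0.10 to 0.77 and Tnfrsf1b from -0.69 to 0.18 for BEC against early.

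Against early cells, scaling therefore set the sign of a few members, as the plot of members by scaling shows. Tnfrsf1b in BEC was -0.69 with TMM (edgeR adjusted p = 8.73e-06) and 0.18 with total counts alone (edgeR adjusted p = 0.0909), and Tnfrsf1a was -0.99 and -0.12. For full against early, Tnfrsf1a was -1.06 with TMM and -0.19 without a call with total counts alone, and Tnfrsf1b was -1.09 and -0.22, called under both. The 6 members called higher in BEC (Tnfrsf19, Tnfrsf21, Relb, Nfkb1, Nfkb2 and Birc3) were higher under both, with TMM log2 changes of 0.68 to 4.17.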

How the data were processed

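Bulk RNA of sorted liver cells was measured in 12 libraries, 3 in each of 4 groups, grouped by the sample titles. The authors deposited raw counts per gene symbol; the submitters' processing notes name STAR 2.7.10b, featureCounts 2.0.1, DESeq2 and the build GRCm39. Which annotation was used, whether strand was counted and how multi-mapping reads were handled are not given in the sources used here, so overlapping genes and close paralogs are uncertain. A second deposited table, of normalized values, was not used.

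Counts were kept for 16210 of 53599 genes (filterByExpr), scaled by TMM and fitted in 1 quasi-likelihood model with edgeR 4.0.16 (R 4.3.3), with p-values adjusted by Benjamini-Hochberg over all genes tested. CPM are counts over the TMM-scaled library size, and 3 counts, the floor, equal 0.128 to 0.273 CPM. Likeness used log2 CPM with a prior count of 2. The common biological coefficient of variation was 14.8%. Replicates differed by more than counting error (chi-square per degree of freedom 5.36 to 58.6), so no library was counted as a copy. Exonic lengths and overlaps came from GENCODE M21 and promoters from RefSeq, both on GRCm38, which is not the authors' build, and were joined by gene symbol. The fit was also run on simulated data, in which few genes were changed and as many up as down. Such data cannot check the scaling on which the comparisons with early cells depend.

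The members and lists were chosen with earlier results of these data known. From each pathway list, the called gene with the largest and the smallest log2 change at each step was named where the higher group had at least 5 CPM, and the 5 genes most like Tnfrsf12a were taken from those with at least 10 CPM. Alternatives were other scaling, DESeq2 1.42.0, other low-count filters, the 6 libraries of a comparison, a replicate block and leaving out each library. Same-numbered libraries deviated together in the 3 successive steps (r from 0.121 to 0.293, 0.137 to 0.322 and 0.170 to 0.257), above 0.1 in every pair, but not in every pair of full against early (0.0960 to 0.209), BEC against early (0.0442 to 0.145) or BEC against intermediate (0.0839 to 0.175). The labels do not say what a shared number stands for.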

Additional observations from a re-analysis of the deposited data

How the results depend on the processing

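Of the members' log2 changes under alternatives that kept every library, 391 kept direction and side of the threshold, 10 gained a call, 6 lost one and 7 changed sign. The changes of sign were, with total counts alone, Tnfrsf12a (0.77) and Tnfrsf1b (0.18) for BEC against early, Tnfrsf11b for full against early (0.13), and Nfkb2 for full (0.17) and BEC (0.035) against intermediate, and for Nfkb2 in full against intermediate 0.0070 with both median-of-ratios factors and DESeq2. Counts of members and genes called stayed within 1.5 times under these alternatives. With libraries left out singly, 326 kept both, 24 lost a call, 2 gained one and 8 changed sign; the number of members called then ran from 3 to 6 for full against intermediate, where 32.6% to 37.9% of all genes were called, and from 4 to 6 for BEC against intermediate, where 46.5% to 49.6% were. The log2 ranges that crossed 0 were -0.26 to 0.26 for Tnfrsf12a in BEC against early, -1.14 to 1.67 for Tnfrsf11b in full against intermediate, -0.074 to 0.037, -0.27 to 0.041 and -0.30 to 0.0084 for Nfkb2 in full against intermediate, BEC against full and BEC against intermediate, and -0.14 to 0.0018 for Birc3 in BEC against full. For these the cause was not tested, and the fitted values of Tnfrsf11b, at 0 to 11 counts in these groups, give no measure of a fold.

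When the replicate number entered as a block, 9, 6 and 3 members were called at the successive steps, where the share of all genes called went from 54.4%, 40.7% and 21.3% to 57.2%, 45% and 25.3%, and the added call was Tnfrsf1a in full against intermediate (log2 -0.32). It also called Tnfrsf1a in BEC against intermediate (log2 -0.24, edgeR adjusted p = 0.0241) and changed no other call of a member. Settings for the pathway lists were chosen after seeing the data; with total counts alone, Eda (0.074), Otulin (0.13) and Nfkbib (0.0024) changed sign for intermediate against early. Counts limit Tnfrsf11b, at 0 to 24 a library, and Tnf and Ptgs2 in early cells.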
